A study of Mus musculus with 25 samples.

Results

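Dusp4, Dusp5, Dusp6, Spry1, Spry2, Spry4, Spred1, Spred2 and Spred3 encode feedback inhibitors of the kinase ERK and of the pathway that activates it. They were taken by symbol, with earlier results of these data known, and make up 9 of the 23940 gene symbols in the table. The RNA came from 25 biopsies of YUMM1.7 tumors grown in C57BL/6 mice. YUMM1.7 is a mouse melanoma line with mutant Braf, so every tumor here descends from 1 line and all share that mutation. Batch 1 holds untreated tumors taken before the BRAF inhibitor (Veh, n = 4), tumors regressing on the inhibitor (Reg, n = 4), residual, cytostatic tumors on the inhibitor (Res, n = 5) and tumors resistant to it (Prog, n = 5). Batch 2 holds residual tumors given both the inhibitor and an antibody to PD-L2 (aPDL2_small, n = 2), tumors resistant to that combination (aPDL2_large, n = 2) and a second set of tumors resistant to the inhibitor alone (Prog_b2, n = 3). The inhibitor is not named here, nor are its dose and the days of biopsy. The labels number tumors within a group without saying whether they came from separate mice, so p-values measure the spread between these samples.

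ERK is switched on when receptors or mutant BRAF drive the RAS, RAF and MEK relay. The dual-specificity phosphatases of this set remove the activating phosphates from ERK itself: DUSP6 acts in the cytoplasm, and DUSP5 and DUSP4 act in the nucleus. Sprouty proteins (SPRY1, SPRY2 and SPRY4) and Spred proteins (SPRED1, SPRED2 and SPRED3) act higher up, where receptors activate RAS and RAF, and SPRED1 brings the RAS inhibitor neurofibromin to the membrane. ERK activity induces several of these genes, Dusp6 and Spry4 among them, and their transcripts are widely read as a gauge of ERK output in BRAF-mutant melanoma.

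The 5′ ends of the genes come first, since the members move together in several comparisons below. RefSeq promoters of GRCm38.p6, running from 250 bases before to 50 bases after the start, were used for 7 of the 9 members. Dusp4 and Spry4 were left out. The expression table itself was made on mm9, per the submitters' processing notes. Both strands were searched for an ETS site (CCGGAAGT), an AP-1 site (TGANTCA) and a cAMP response element (TGACGTCA), and, chosen after the sequences were seen, for the CArG box bound by serum response factor. The first 3 motifs had 0 matches in the 7 promoters, and they were present in 3.89%, 7.81% and 1.79% of all 32851 promoters. The CArG box, present in 1.63% of all promoters, matched at a pair of adjoining positions in Dusp5, bases -82 to -73 and -72 to -63 from the start, and in no other of the 7. The Dusp5 promoter is printed because it alone held a match, with the matched bases in capitals, and that of Dusp6 because it belongs to the most abundant phosphatase of the set. A match describes these letters only. Dusp5 lies at chr19:53528895-53529194 and Dusp6 at chr10:99262981-99263280, both on the plus strand.
Dusp5: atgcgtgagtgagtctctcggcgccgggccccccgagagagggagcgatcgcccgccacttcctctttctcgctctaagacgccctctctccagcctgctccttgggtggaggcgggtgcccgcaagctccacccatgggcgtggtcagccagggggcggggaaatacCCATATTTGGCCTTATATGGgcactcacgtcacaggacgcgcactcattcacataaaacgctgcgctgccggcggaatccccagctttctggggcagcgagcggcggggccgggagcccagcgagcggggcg
Dusp6: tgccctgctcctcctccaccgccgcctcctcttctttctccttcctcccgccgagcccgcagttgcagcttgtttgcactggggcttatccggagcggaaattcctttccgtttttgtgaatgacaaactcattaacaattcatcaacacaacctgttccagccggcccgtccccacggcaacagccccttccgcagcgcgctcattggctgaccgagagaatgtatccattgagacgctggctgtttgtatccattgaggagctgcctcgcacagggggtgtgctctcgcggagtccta

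Expression is given in FPKM, which scales fragments to the length of the transcript and to the size of the library, so that levels of different genes can be set side by side. Between 11081 and 12262 genes reached 1 FPKM in each library, while the depth of a library is unknown, since no read counts were used. Some libraries stood apart. The summed FPKM of basal keratinocyte markers was 529 in Res 1, against a median of 5.14 over the Res libraries, and it was 1222 in Veh 1 and 316 in Veh 3. Reg 1 was the highest of the 4 Reg libraries for 8 of the 9 members, and Res 5 the highest of the 5 Res libraries for 8 of the 9. The pigment genes Tyr, Dct, Pmel, Mlana and Tyrp1 stayed below 1 FPKM in all 25 libraries, so the melanocyte label rests on Mitf, at 1.64 to 13.9 FPKM, and on Sox10, which ranged from 0.162 to 188 FPKM.

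In untreated tumors Dusp6 was the most abundant member, at 98.8 ± 17.5 FPKM (mean ± SD, n = 4). Spry1 followed at 70.2 ± 8.91 FPKM and Spred1 at 63.5 ± 9.91 FPKM. Spry4 stood at 58.5 ± 14.8 FPKM and Spry2 at 50.2 ± 11.3 FPKM. The ranges of these 4 genes over the untreated libraries overlap one another, so their order is not settled. Spred2 was at 23.4 ± 2.98 FPKM and Dusp5 at 16.8 ± 5.83 FPKM. The lowest pair was Dusp4, at 7.92 ± 1.43 FPKM, and Spred3, at 7.12 ± 1.67 FPKM. Spry3, the remaining Sprouty gene, was listed at 0 FPKM.

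**Figure D1:**
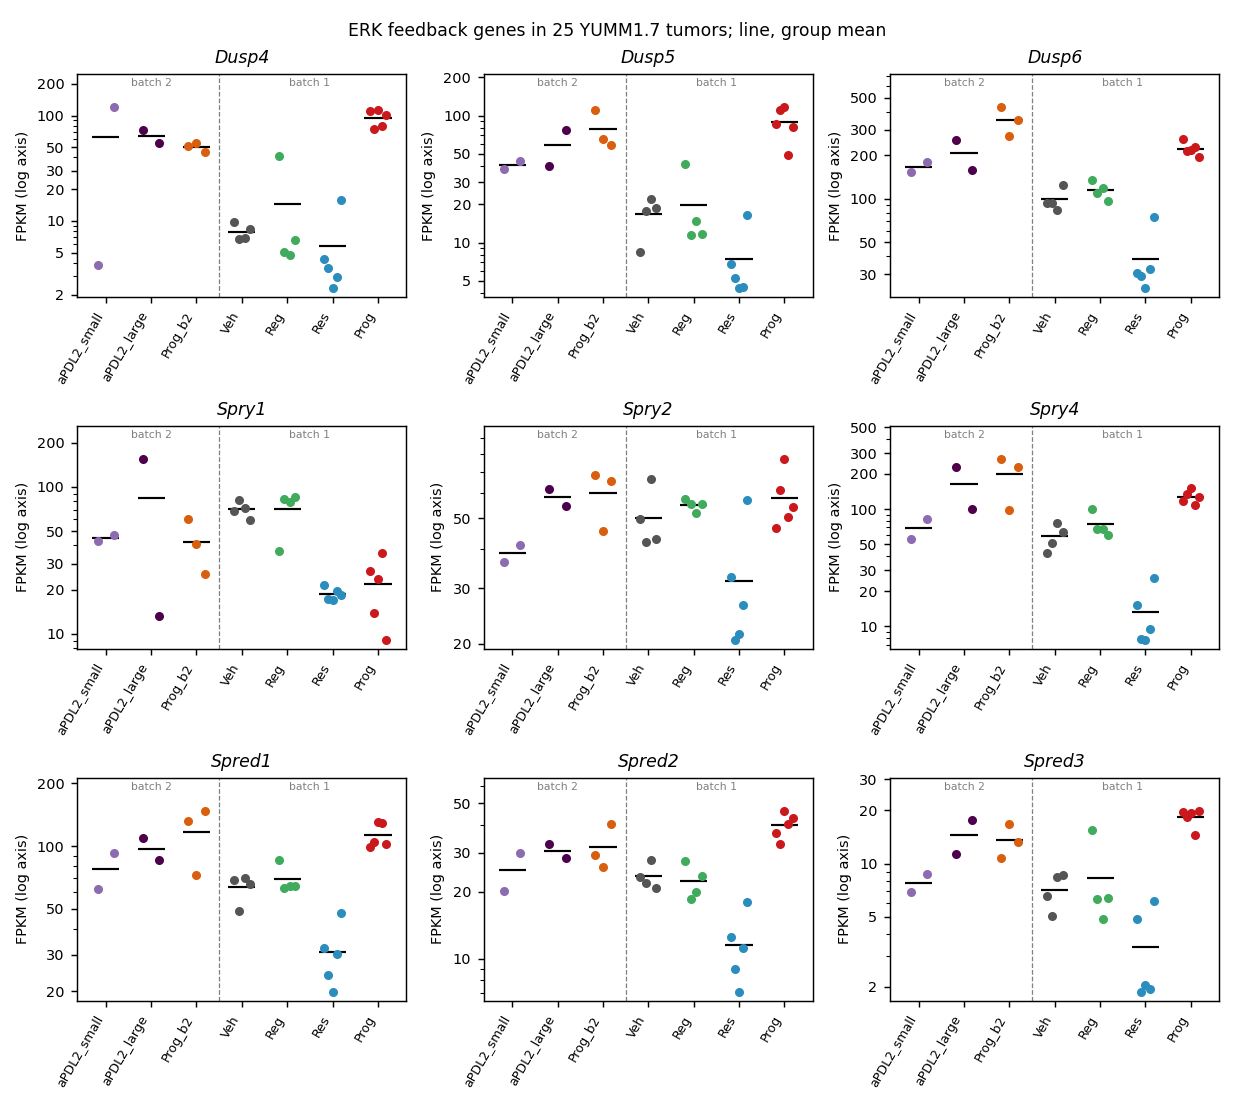
FPKM (log axis) of the 9 genes, 1 panel a gene, with 1 point a tumor, a line at the group mean, and batch 2 left of the dashed line. Dusp4 lies between 74.0 and 113 FPKM in the 5 Prog tumors, above every untreated tumor, while Spry1 lies below every untreated tumor in both Prog and Res.

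Regressing tumors were set against untreated tumors to ask whether ERK output had changed while the tumors shrank. None of the 9 genes was called in Reg against Veh, a comparison in which 0.0164% of the 12210 genes tested were called (limma, adjusted p below 0.05 over all genes, as in every comparison that follows). At an unadjusted p under 0.05, 0 of the 9 members and 1364 genes passed. Log2 changes, here and below those of FPKM + 1 ± SE, had a median of 0.12 over the members and 0.02 over all genes. Dusp6, the cytoplasmic ERK phosphatase, was at 134, 109, 119 and 95.7 FPKM in Reg, against 93.7, 93.2, 84.0 and 124 FPKM in Veh. The groups overlap, and the log2 change was 0.22 ± 0.24 (95% confidence interval -0.30 to 0.73, adjusted p = 0.739). Spry4, a Sprouty that ERK induces strongly, had the widest difference among the members, 0.34 ± 0.30 (interval -0.28 to 0.97, adjusted p = 0.652). These intervals leave room for a moderate difference either way.

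Reg 1 decided the Reg values of 2 phosphatases. Dusp4 was at 41.1 FPKM in Reg 1 and at 5.06, 4.72 and 6.61 FPKM in the other Reg tumors, against 9.76, 6.74, 6.85 and 8.35 FPKM in Veh. Dusp5, the nuclear phosphatase specific for ERK, was at 41.3 FPKM in Reg 1 and at 11.5, 14.9 and 11.7 FPKM in the others, against 8.48, 17.9, 22.0 and 18.9 FPKM in Veh. Reg 1 was the highest Reg tumor for both, and the lowest for Spry1, at 36.6 FPKM against 78.7 to 85.1 FPKM in the others. Without Reg 1 and Res 5, libraries chosen after their values of these genes were seen, the log2 change of Dusp4 was -0.46 and that of Dusp5 -0.31, given here as values with no test.

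Residual tumors had the lowest levels of the set. In Res against Veh 8 of the 9 genes fell and Dusp4 did not pass, where 25.1% of all genes tested fell. The members' median log2 change was -1.06 and that of all genes -0.03. Spry4 was at 15.3, 7.78, 7.70, 9.502 and 25.9 FPKM in Res, against 42.6, 51.3, 76.4 and 63.6 FPKM in Veh. Every Res tumor lies below every Veh tumor, and Spry4 had the largest fall of the set, -2.18 ± 0.28 (adjusted p = 1.7e-05). Spry1 was at 21.4, 17.2, 16.9, 19.6 and 18.4 FPKM in Res, against 68.6, 81.0, 71.6 and 59.4 FPKM in Veh. The groups are apart and the Res values are tight, with a log2 change of -1.85 ± 0.31 (adjusted p = 0.000192). Dusp6 was at 30.7, 29.4, 24.2, 32.5 and 74.2 FPKM in Res, all below the lowest Veh tumor at 84.0 FPKM. It fell by 1.45 ± 0.23 (adjusted p = 0.00014).

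Spred1 and Spred2, the more abundant Spred genes, both fell. Spred1 was at 32.4, 24.0, 19.98, 30.3 and 47.8 FPKM in Res, against 68.6, 48.9, 70.6 and 66.1 FPKM in Veh, with a log2 change of -1.06 ± 0.19 (adjusted p = 0.000423). Spred2 averaged 11.6 ± 4.16 FPKM in Res and 23.4 ± 2.98 FPKM in Veh, a change of -1.01 ± 0.19 (adjusted p = 0.000564). Neither gene's groups overlap. Across the set, 5 of 9 members had every Res tumor below every Veh tumor, as had 18.8% of all genes. Spred3, the least abundant Spred, averaged 3.36 ± 1.98 FPKM in Res and 7.12 ± 1.67 FPKM in Veh (-0.99 ± 0.30, adjusted p = 0.0145), with overlapping groups.

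The remaining falls were less firm. Dusp5 was at 6.78, 5.24, 4.405, 4.48 and 16.4 FPKM in Res, against 8.48 to 22.0 FPKM in Veh, and Res 5 overlaps the untreated range. Its fall of 1.16 ± 0.41 (adjusted p = 0.0294) lost its call without Veh 2, Veh 3, Veh 4, Res 2, Res 3 or Res 4, where the adjusted p reached 0.0847. Spry2 was at 32.5, 20.6, 21.5, 26.6 and 57.1 FPKM in Res, against 49.7, 42.0, 66.4 and 42.8 FPKM in Veh. Its fall of 0.73 ± 0.24 (adjusted p = 0.019) lost its call without Veh 3 (adjusted p = 0.0708), Res 2 (0.0534) or Res 3 (0.052), and with only these groups in the fit (0.0707). Dusp4 was at 4.38, 3.57, 2.32, 2.96 and 15.9 FPKM in Res, with a log2 change of -0.66 ± 0.51 (adjusted p = 0.308). Without Reg 1 and Res 5 it was -1.06, a value with no test, since Res 5 was left out for its high levels of these same genes. Without the libraries with high keratin 5 of 9 fell, with Dusp5, Spry2 and Spred3 short of the threshold (adjusted p = 0.0633, 0.187 and 0.0601).

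Res tumors also held more RNA of other cell types. All 7 tested macrophage markers, all 6 neutrophil markers, all 7 skeletal muscle markers, all 7 endothelial markers and 5 of 6 fibroblast markers rose in Res against Veh. The summed macrophage markers were 725 to 1495 FPKM in Res and 127 to 608 FPKM in Veh. The neutrophil sum was 547 to 2006 FPKM in Res and 18.6 to 267 FPKM in Veh, and the muscle sum 65.2 to 891 FPKM in Res and 5.11 to 95.7 FPKM in Veh. The 2 tested melanocyte markers rose as well: Sox10 averaged 6.19 ± 4.03 FPKM in Res and 1.57 ± 1.62 FPKM in Veh (adjusted p = 0.0347), and Mitf 7.29 ± 2.42 FPKM in Res and 3.17 ± 1.06 FPKM in Veh (adjusted p = 0.00464). The part of these markers in the fall of the feedback genes was not tested, and in bulk RNA fewer melanoma cells and less RNA per cell cannot be told apart. Relative to regressing tumors, the same 8 members fell in Res, where 22.5% of all genes fell, with Spry4 at -2.52 ± 0.28 (adjusted p = 5.08e-06) and Dusp6 at -1.67 ± 0.23 (adjusted p = 5.24e-05). Dusp5 lost that call without Reg 1 (adjusted p = 0.107), Res 2, Res 3 or Res 4, and Spred3 was at the threshold without Reg 1 (adjusted p = 0.05). With only the Res and Reg libraries in the fit 6 members were called, and Dusp5 and Spred3 were not (adjusted p = 0.0668 and 0.0635). Dusp4 gained it without Res 5 (-1.28, adjusted p = 0.0355). All 7 muscle and all 6 neutrophil markers rose in Res against Reg as well. So did 3 of 6 fibroblast, 2 of 7 macrophage, 2 of 7 endothelial and 1 of 5 T cell markers, and 0 of these fell. The part of these markers was not tested. Both comparisons use the same Res tumors.

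**Figure D2:**
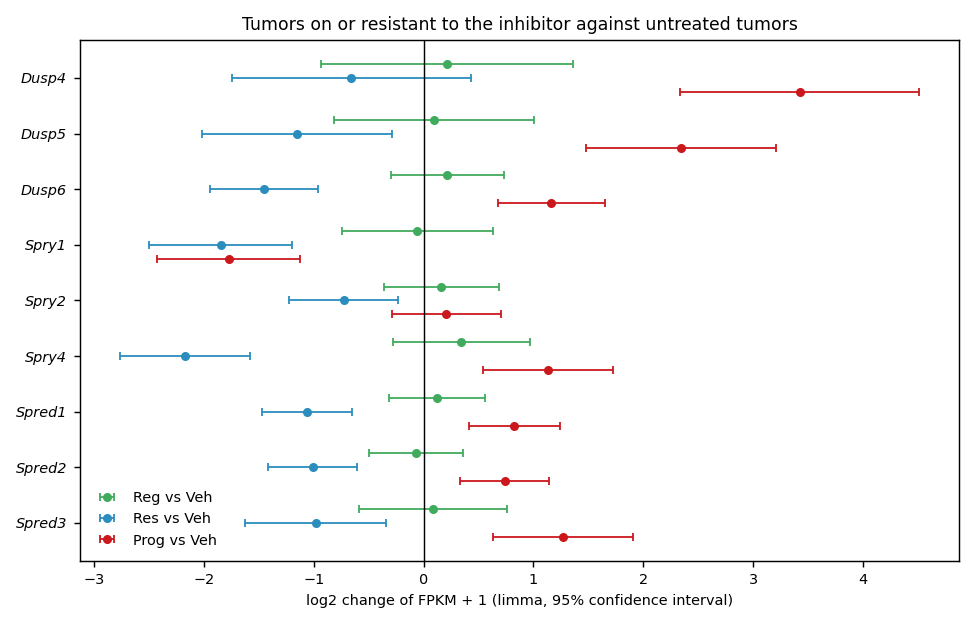
Log2 change of FPKM + 1 against untreated tumors for Reg, Res and Prog, with 95% confidence intervals from limma. The Reg points lie near 0, the Res points lie left of 0, and the Prog points lie right of 0 for 8 genes, with Spry1 alone at -1.78.

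Resistant tumors were compared with residual tumors to ask how the pathway's output stood once tumors grew again on the inhibitor. In Prog against Res 8 of the 9 genes rose and Spry1 did not pass. The background was high, since 40% of all genes tested rose and 32.4% fell. The members' median log2 change was 2.25 and that of all genes 0.08. Among the phosphatases, Dusp4 was at 112, 74.0, 113, 79.1 and 100.2 FPKM in Prog, against 2.32 to 15.9 FPKM in Res. The groups are far apart, with a ratio of means of 16.4 and a log2 change of 4.09 ± 0.48 (adjusted p = 2.3e-06). Dusp5 was at 85.7, 110, 117, 48.9 and 82.0 FPKM in Prog, against 4.405 to 16.4 FPKM in Res, a rise of 3.50 ± 0.39 (adjusted p = 1.12e-06). Dusp6 was at 257, 213, 215, 227 and 194 FPKM in Prog, against 24.2 to 74.2 FPKM in Res, a rise of 2.62 ± 0.22 (adjusted p = 1.03e-07).

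The Sprouty genes parted ways. Spry4 was at 117, 135, 150.4, 108 and 126 FPKM in Prog, against 7.70 to 25.9 FPKM in Res, a rise of 3.31 ± 0.26 (adjusted p = 6.76e-08). Spry2 was at 46.6, 61.3, 77.2, 50.3 and 54.4 FPKM in Prog, against 20.6 to 57.1 FPKM in Res. Its groups overlap through Res 5, and the rise was 0.93 ± 0.22 (adjusted p = 0.00133). Spry1 was at 26.9, 13.8, 23.7, 35.3 and 9.13 FPKM in Prog, against 16.9 to 21.4 FPKM in Res. It had a log2 change of 0.07 ± 0.29 (interval -0.54 to 0.69, adjusted p = 0.83), and the upper end of the interval lies under the estimates for Spry2 and Spry4.

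All 3 Spred genes rose. Spred1 averaged 113 ± 15.3 FPKM in Prog and 30.9 ± 10.7 FPKM in Res (1.89 ± 0.18, adjusted p = 3.59e-07). Spred2 averaged 39.8 ± 5.24 FPKM in Prog and 11.6 ± 4.16 FPKM in Res (1.75 ± 0.18, adjusted p = 6.21e-07). Spred3 averaged 18.3 ± 2.18 FPKM in Prog and 3.36 ± 1.98 FPKM in Res (2.25 ± 0.29, adjusted p = 4.25e-06). For 7 of 9 members every Prog tumor lay above every Res tumor, as for 29.9% of all genes. Most markers of other cells moved the other way in this comparison. All 7 muscle, all 6 neutrophil, 6 of 7 macrophage, 5 of 6 fibroblast and all 5 T cell markers fell in Prog. Of 7 endothelial markers 6 fell and 1 rose, with Cdh5 averaging 97.55 FPKM in Prog and 23.25 FPKM in Res. Of the 2 tested melanocyte markers 1 fell and 0 rose. Sox10 averaged 3.04 FPKM in Prog and 6.19 FPKM in Res, and Mitf 4.37 FPKM in Prog and 7.29 FPKM in Res. The macrophage sum was 135 to 203 FPKM in Prog and 725 to 1495 FPKM in Res. The part of all these markers in the rise was not tested.

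Against untreated tumors, 7 members rose in Prog, Spry1 fell and Spry2 did not pass. Of all genes 25.2% rose and 21.1% fell. Markers of other cells moved too: 4 of 7 endothelial markers fell and 1 rose, 3 of 7 macrophage markers fell and 1 rose, 3 of 6 neutrophil markers rose, 1 of 6 fibroblast markers rose and 1 fell, and 1 of 5 T cell markers fell. Their part was not tested. Dusp4, 1 of the 2 least abundant members in untreated tumors, had the largest rise, with a ratio of means of 12.05 and a log2 change of 3.43 ± 0.51 (adjusted p = 0.00011). Dusp5 followed with a ratio of 5.28 (2.35 ± 0.41, adjusted p = 0.000348). The others rose by less, Spred3 by 1.27 ± 0.30 (adjusted p = 0.00312), Dusp6 by 1.16 ± 0.23 (adjusted p = 0.000926), Spry4 by 1.13 ± 0.28 (adjusted p = 0.0039), Spred1 by 0.83 ± 0.19 (adjusted p = 0.00281) and Spred2 by 0.74 ± 0.19 (adjusted p = 0.00537). For all 7 the Prog tumors lie above every Veh tumor, a separation that 21.1% of all genes show. Spry2 averaged 58.0 ± 12.1 FPKM in Prog and 50.2 ± 11.3 FPKM in Veh (0.20 ± 0.24, interval -0.29 to 0.70, adjusted p = 0.488).

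Spry1 went the other way. It averaged 21.8 ± 10.4 FPKM in Prog and 70.2 ± 8.91 FPKM in Veh, every Prog tumor lay below every Veh tumor (as for 17.9% of all genes), and the log2 change was -1.78 ± 0.31 (adjusted p = 0.000329). Its level in Prog was thus close to that in Res, while Dusp6 differed between them. The ratio of Spry1 to Dusp6 within a library, which cancels a factor common to both genes, had a median of 0.792 in Veh, 0.707 in Reg, 0.602 in Res and 0.104 in Prog. The Prog ratios, 0.0472 to 0.155, lie below every ratio of the other batch 1 groups, whose lowest is 0.248. The ratio of Dusp4 to Dusp6 had medians of 0.0769 in Veh, 0.0577 in Reg, 0.122 in Res and 0.434 in Prog, and the Prog ratios, 0.348 to 0.523, lie above all others of batch 1, whose highest is 0.305 in Reg 1. The resistant tumors of batch 2, Prog_b2, did not have that high ratio of Dusp4 to Dusp6. Theirs was 0.119 to 0.203, within the range of Res, 0.0909 to 0.215. Their ratio of Spry1 to Dusp6, 0.0736 to 0.151, lay within the range of Prog. As a share of the 9 genes' summed FPKM, Spry1 held 1.25% to 4.82% in Prog and 14.4% to 22.0% in Veh, and Dusp4 held 9.71% to 13.9% in Prog and 1.58% to 2.63% in Veh. The summed FPKM itself had medians of 392 in Veh, 422 in Reg, 139 in Res and 762 in Prog.

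**Figure D3:**
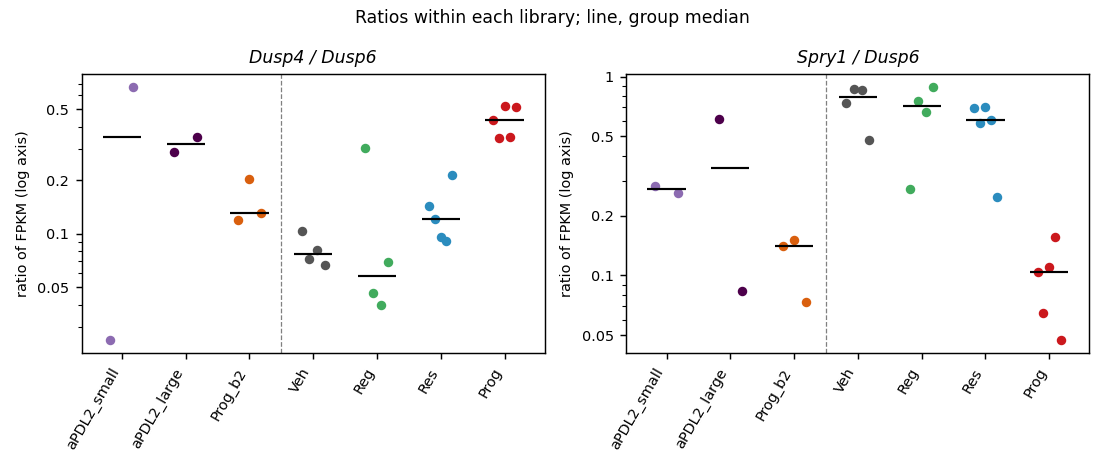
Ratio of Spry1 to Dusp6 and of Dusp4 to Dusp6 (log axis), with 1 point a tumor, a line at the group median, and batch 2 left of the dashed line. Prog tumors sit lowest of batch 1 in Spry1 over Dusp6, at 0.0472 to 0.155, and highest in Dusp4 over Dusp6, at 0.348 to 0.523. Prog_b2 tumors sit at 0.0736 to 0.151 in Spry1 over Dusp6 and at 0.119 to 0.203 in Dusp4 over Dusp6.

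Against regressing tumors 7 members rose in Prog, where 24.3% of all genes rose and 24.1% fell, Spry1 fell by 1.72 ± 0.31 (adjusted p = 0.000522) and Spry2 did not pass. Dusp4 rose by 3.21 ± 0.51 (adjusted p = 0.000246), and by 3.89 without Reg 1. Spry4 rose by 0.79 ± 0.28 (adjusted p = 0.0289), and lost its call without Reg 2, Reg 3, Reg 4, Prog 2 or Prog 3, where the adjusted p lay between 0.0518 and 0.0797. In this comparison 6 of 7 endothelial markers fell in Prog and 1 rose, with Cdh5 averaging 97.55 FPKM in Prog and 19.49 FPKM in Reg. In addition, 6 of 7 macrophage and 5 of 5 T cell markers fell. Of 6 neutrophil markers 2 rose and 1 fell, and of 6 fibroblast markers 1 rose and 1 fell. The part of these markers was not tested. The comparisons of Prog with Veh, Reg and Res share the Prog tumors.

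Braf, the kinase that the inhibitor targets, also differed between these groups. Its mRNA was at 51.3, 43.5, 44.4, 31.9 and 49.7 FPKM in Prog, against 4.08, 4.41, 4.52 and 3.52 FPKM in Veh. The groups do not overlap, and the log2 change was 3.12 ± 0.14 (adjusted p = 1.47e-09). In the resistant tumors of batch 2, Prog_b2, it was at 4.59, 4.33 and 5.69 FPKM.

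**Figure D4:**
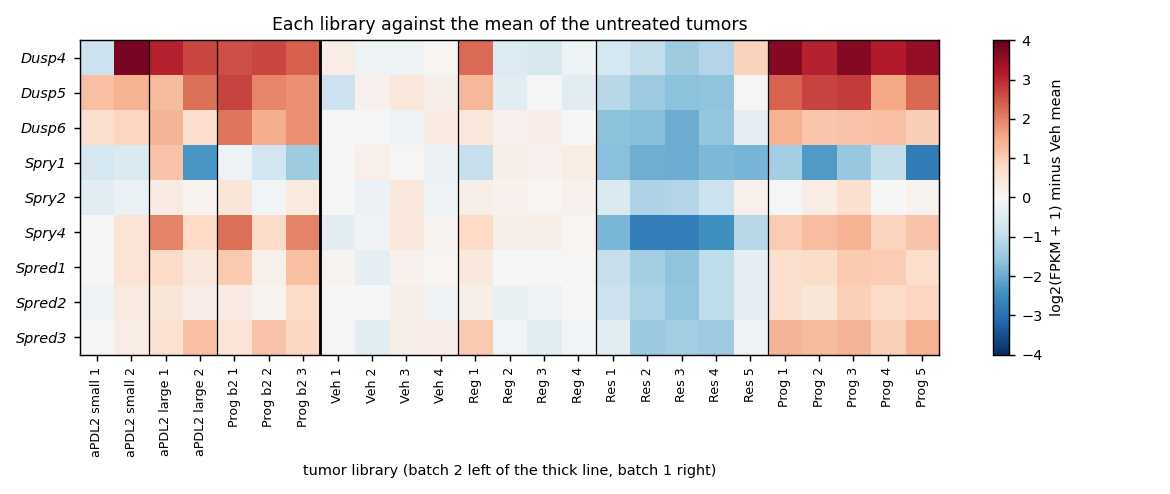
Heat map of log2(FPKM + 1) of each tumor minus the untreated mean, with genes in rows and tumors in columns, batch 2 left of the thick line. Res 5 stands above the other Res tumors for 8 genes, Reg 1 above the other Reg tumors for 8, and aPDL2_small 1 below aPDL2_small 2 for all 9.

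The resistant tumors of the second batch were set against those of the first. None of the 9 was called in Prog_b2 against Prog, where 8.94% of genes were called, and 1 of 9 members and 3098 genes passed at an unadjusted p under 0.05. Batch and group cannot be told apart in this comparison. Dusp6 was at 430.4, 271 and 349 FPKM in Prog_b2, against 194 to 257 FPKM in Prog, and the groups do not overlap (0.64 ± 0.25, adjusted p = 0.117). Dusp4 was at 51.3, 54.9 and 45.5 FPKM in Prog_b2, against 74.0 to 113 FPKM in Prog, again without overlap (-0.89 ± 0.73, adjusted p = 0.477). With only Prog_b2 and Prog in the fit Dusp4 was called lower (adjusted p = 0.0274). Thus 1 member stood apart in each direction, where 5.93% of all genes were apart upwards and 10.3% downwards. Spry1 was at 60.6, 40.98 and 25.6 FPKM in Prog_b2, against 9.13 to 35.3 FPKM in Prog (0.99 ± 0.52, interval -0.08 to 2.06, adjusted p = 0.237). With Prog_b2 in place of Prog against Veh, which crosses the batches as well, Spry1 was no longer called (-0.79, adjusted p = 0.313). Nor were Spred2 (0.41, adjusted p = 0.2) and Spred3 (0.85, adjusted p = 0.0721). Dusp4 (2.54, adjusted p = 0.0246), Dusp5 (2.17, adjusted p = 0.00304) and Dusp6 (1.80, adjusted p = 0.000333) still rose. So did Spry4 (1.65, adjusted p = 0.00531) and Spred1 (0.82, adjusted p = 0.026).

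Within batch 2, tumors on the inhibitor with anti-PD-L2 were compared with Prog_b2 and with each other. No member and no gene, 0% of 11913, was called in aPDL2_small against Prog_b2, aPDL2_large against Prog_b2 or aPDL2_large against aPDL2_small. At an unadjusted p under 0.05 the members passing were 4, 1 and 2, and the genes passing 1399, 165 and 946. Dusp6 was at 153 and 180 FPKM in aPDL2_small, against 430.4, 271 and 349 FPKM in Prog_b2. Both small tumors lie below all 3 Prog_b2 tumors, with a log2 change of -1.05 ± 0.29 (interval -1.74 to -0.36, adjusted p = 0.284). In all, 5 members had that separation, as had 17.3% of all genes. Spry4 was at 56.0 and 83.2 FPKM in aPDL2_small, against 268, 97.8 and 228 FPKM in Prog_b2 (-1.40 ± 0.53, adjusted p = 0.394).

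The pairs of tumors differed widely within a group. Dusp4 was at 3.84 FPKM in aPDL2_small 1 and 120.7 FPKM in aPDL2_small 2, from within the range of the Res tumors to above every Prog tumor. Without aPDL2_small 2, Dusp4 was called lower in aPDL2_small against Prog_b2 (-3.41, adjusted p = 0.0254) and higher in aPDL2_large against aPDL2_small (3.74, adjusted p = 0.0323), each resting on 1 small tumor that is assumed to vary like the others. Spry1 was at 155 FPKM in aPDL2_large 1 and 13.2 FPKM in aPDL2_large 2, the highest Spry1 value of the series and 1 of its lowest. Sox10 was at 140 FPKM in aPDL2_small 2 and 188 FPKM in aPDL2_large 1, against 0.162 to 10.7 FPKM in all batch 1 libraries. The other melanocyte markers did not stand out there: Mitf averaged 4.96 FPKM in aPDL2_small and 6.05 FPKM in aPDL2_large, against 7.54 FPKM in Prog_b2, and the pigment genes stayed below 1 FPKM. The part of Sox10 in these values was not tested. The macrophage sum was 644 and 1388 FPKM in aPDL2_small, against 204 to 571 FPKM in Prog_b2.

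For 5 of the genes the step between residual and resistant tumors was smaller in batch 2, with anti-PD-L2, than in batch 1, without it. The difference, aPDL2_large against aPDL2_small minus Prog against Res, was tested in 1 fit of all libraries, with each step inside its own batch. It was below 0 and called for 5 of 9 members, where 8.81% of genes were called below 0 and 6.2% above. Dusp6 changed by 0.27 ± 0.31 with anti-PD-L2 and by 2.62 ± 0.22 without it, a difference of -2.34 ± 0.41 (adjusted p = 0.00272). Its residual tumors were at 153 and 180 FPKM in aPDL2_small and at 24.2 to 74.2 FPKM in Res. Its resistant tumors were at 158 and 254 FPKM in aPDL2_large and at 194 to 257 FPKM in Prog. All 5 genes averaged more in aPDL2_small than in Res, and the part of the batch in this was not tested. The difference was -3.07 ± 0.69 for Dusp5 (adjusted p = 0.00942), -2.16 ± 0.58 for Spry4 (adjusted p = 0.0202), -1.55 ± 0.39 for Spred1 (adjusted p = 0.0153) and -1.45 ± 0.34 for Spred2 (adjusted p = 0.0122). Dusp4 had a difference of -2.67 ± 1.19 (adjusted p = 0.124) and Spred3 one of -1.47 ± 0.51 (adjusted p = 0.0551). Spry1 and Spry2 had differences of -0.04 ± 0.83 and -0.35 ± 0.39 (adjusted p = 0.982 and 0.558).

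With 2 tumors in each anti-PD-L2 group, single libraries decided several of these calls. Without aPDL2_small 2, the calls of Spry4, Spred1 and Spred2 were lost (adjusted p = 0.0931, 0.0869 and 0.0755) and 2 members remained called. Without aPDL2_large 1, that of Dusp5 was lost (adjusted p = 0.0672), and without aPDL2_large 2, those of Spry4 and Spred1 (adjusted p = 0.103 and 0.0511). Dusp4 was called without aPDL2_small 1 (adjusted p = 0.00627), and Spred3 without Res 1 (adjusted p = 0.0386) or Res 5 (adjusted p = 0.0179). Of the 5, Dusp6 kept its call whichever library was left out (adjusted p at most 0.0185). The muscle marker sum was 6.01 to 55.9 FPKM in aPDL2_small and 65.2 to 891 FPKM in Res. The neutrophil sum was 24.2 to 51.2 FPKM in aPDL2_small and 547 to 2006 FPKM in Res. The endothelial sum was 36.4 to 37.1 FPKM in aPDL2_small and 71.4 to 155 FPKM in Res, and the keratinocyte sum 1.57 to 1.99 and 2.79 to 529 FPKM. The macrophage, fibroblast, T cell and melanocyte sums overlapped. The part of these markers was not tested, and batch and treatment cannot be told apart in the comparison of the steps.

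**Figure D5:**
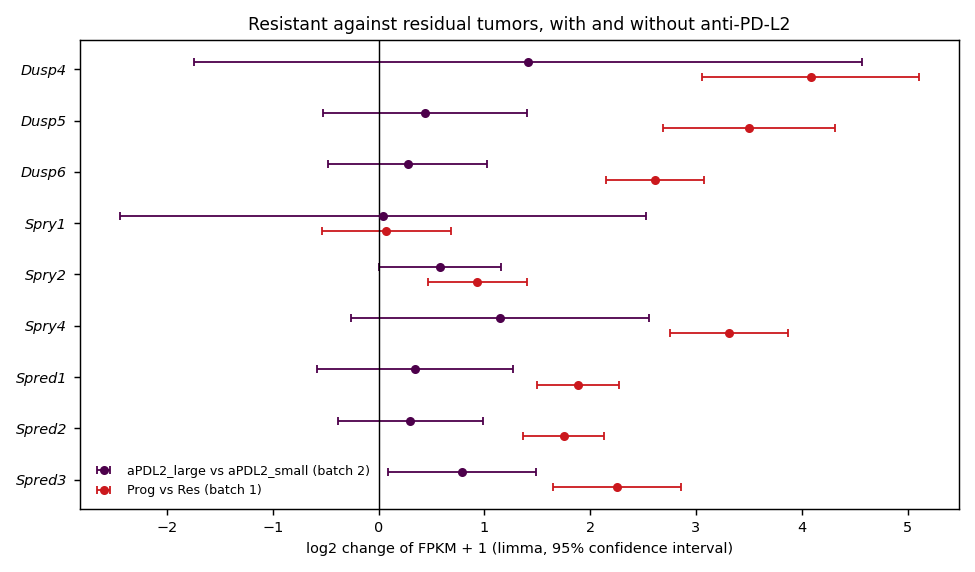
Log2 change of FPKM + 1 of resistant against residual tumors, with anti-PD-L2 (aPDL2_large against aPDL2_small) and without it (Prog against Res), with 95% confidence intervals from limma. For Dusp6 the points stand at 0.27 and 2.62, and for Spry1 at 0.04 and 0.07.

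Ordered by group mean from low to high, all 9 members began with Res. The orders mix both batches, and for neighbours from different batches, batch and group cannot be told apart. The groups aPDL2_small, aPDL2_large and Prog_b2 are small, so they can lie apart by chance more easily. Of all genes, 18.8% had Res apart below Veh, 15.4% Res below Reg, 17.5% Prog above Reg and 5.93% Prog_b2 above Prog. For the other pairs named as apart that share was not counted. Dusp6 ran Res, Veh, Reg, aPDL2_small, aPDL2_large, Prog and Prog_b2, and the libraries of neighbouring groups did not overlap between Res and Veh, between Reg and aPDL2_small and between Prog and Prog_b2. Spry4 ran Res, Veh, aPDL2_small, Reg, Prog, aPDL2_large and Prog_b2, apart only between Res and Veh and between Reg and Prog. Dusp4 ran Res, Veh, Reg, Prog_b2, aPDL2_small, aPDL2_large and Prog, apart between Reg and Prog_b2 and between aPDL2_large and Prog. Spred1 ran Res, Veh, Reg, aPDL2_small, aPDL2_large, Prog and Prog_b2, and Spred2 ran Res, Reg, Veh, aPDL2_small, aPDL2_large, Prog_b2 and Prog; for both, only Res stood apart from its neighbour. For Dusp5 and Spred3, which began with Res and Veh and ended with Prog, all neighbours overlapped. Spry1 ran Res, Prog, Prog_b2, aPDL2_small, Veh, Reg and aPDL2_large, apart only between aPDL2_small and Veh, and Spry2 ran Res, aPDL2_small, Veh, Reg, Prog, aPDL2_large and Prog_b2, apart only between aPDL2_small and Veh.

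Lists of other genes of the pathway are read against the shares of all genes, of which 20.4% rose and 25.1% fell in Res against Veh, 25.2% rose in Prog against Veh, and 40% rose and 32.4% fell in Prog against Res. Of 14 tested genes of a list of other ERK targets, 9 fell in Res against Veh, 5 rose in Prog against Veh and 13 rose in Prog against Res, with 0 in the opposite direction each time. The 5 that rose in Prog against Veh are not far from the share of all genes. Ccnd1, the cyclin that carries cells into S phase, averaged 52.5 ± 30.7 FPKM in Res and 310 ± 40.0 FPKM in Veh (-2.71 ± 0.29, adjusted p = 2.37e-06). It averaged 369 ± 52.5 FPKM in Prog (2.96 ± 0.27 against Res, adjusted p = 2.5e-07; 0.25 ± 0.29 against Veh, adjusted p = 0.494). Etv4, an ETS factor downstream of ERK, averaged 44.0 ± 6.15 FPKM in Prog and 6.14 ± 4.56 FPKM in Res (2.90 ± 0.34, adjusted p = 2.2e-06). Myc, a growth regulator, averaged 48.8 ± 9.35 FPKM in Prog and 14.6 ± 7.40 FPKM in Res (1.77 ± 0.24, adjusted p = 7.32e-06).

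Of 9 other dual-specificity phosphatases tested, 3 rose and 1 fell in Res against Veh, and 4 rose and 1 fell in Prog against Res, the rising share of which is near the 40% of all genes. Dusp3 averaged 23.0 ± 5.34 FPKM in Res and 6.86 ± 1.36 FPKM in Veh (1.598 ± 0.15, adjusted p = 7.18e-07), opposite in sign to the members. Dusp9, another cytoplasmic ERK phosphatase, averaged 13.8 ± 5.18 FPKM in Prog and 0.624 ± 0.269 FPKM in Res (3.12 ± 0.33, adjusted p = 8.8e-07). Dusp14 averaged 43.0 ± 16.3 FPKM in Prog and 6.53 ± 1.40 FPKM in Res (2.48 ± 0.29, adjusted p = 1.85e-06). Of 12 other negative regulators, 2 rose and 3 fell in Res against Veh, near the 20.4% and 25.1% of all genes, and 7 rose and 2 fell in Prog against Res, against 40% and 32.4%. Rasa1, a GTPase activator of RAS, averaged 102 ± 9.18 FPKM in Prog and 20.6 ± 4.96 FPKM in Res (2.28 ± 0.12, adjusted p = 3.59e-09), and Rasa2, a relative, 12.02 ± 1.96 FPKM in Prog and 4.35 ± 1.44 FPKM in Res (1.31 ± 0.15, adjusted p = 1.26e-06). Rgs2, a regulator of G protein signalling, averaged 7.89 ± 0.737 FPKM in Prog and 48.1 ± 16.8 FPKM in Res, and fell by 2.40 ± 0.29 (adjusted p = 2.6e-06).

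Among 20 genes of the relay from RAS to ERK, 3 rose and 5 fell in Res against Veh, at or below the 20.4% and 25.1% of all genes, and 11 rose and 4 fell in Prog against Res, against 40% and 32.4%. Rps6ka3, an ERK-activated kinase, averaged 33.9 ± 3.83 FPKM in Prog and 11.99 ± 3.64 FPKM in Res (1.47 ± 0.16, adjusted p = 1.12e-06). Of 9 tested receptor tyrosine kinases, 2 rose and 1 fell in Res against Veh, and 2 rose and 3 fell in Prog against Res, shares near or below those of all genes. Met, the hepatocyte growth factor receptor, averaged 4.42 ± 1.51 FPKM in Res and 13.0 ± 3.69 FPKM in Veh (-1.38 ± 0.23, adjusted p = 0.000174). Kit, the stem cell factor receptor, averaged 0.67 ± 0.321 FPKM in Prog and 7.17 ± 3.73 FPKM in Res, and fell by 2.20 ± 0.37 (adjusted p = 5.77e-05). Pdgfrb, a receptor of stromal cells, averaged 120.1 ± 14.7 FPKM in Prog and 77.8 ± 9.05 FPKM in Res (0.62 ± 0.10, adjusted p = 5.57e-05).

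As a description of likeness, the genes whose log2(FPKM + 1) followed each member most closely over the 18 libraries of batch 1 were sought among 11496 genes. The 4 groups make up most of that variation, so a high coefficient says mainly that a gene differs between the same groups. Dusp4 was most like Hbegf (Pearson r = 0.979), which encodes a ligand of the EGF receptor, and Icmt (r = 0.978). Spred2 was most like Cdc27 (r = 0.99). Spry1 was most like Phf19 (r = 0.94) and Cntln (r = 0.929). For the other 6 members the 2 leading coefficients lay between 0.934 for Spry2 with Rbpj and 0.989 for Spred3 with Hspa9.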

How the data were processed

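The authors' deposited table holds FPKM for 23940 gene symbols in 25 libraries of unstranded, poly(A)-selected paired reads, per the labels' protocols. Per the submitters' processing notes, the build was mm9 and TopHat, TopHat2, Cuffnorm and Cuffdiff were used, and no version or role of theirs is known here. From these values, log2(FPKM + 1) was fitted by group in limma 3.58.1 (R 4.3.3; eBayes with a trend) for genes averaging 1 FPKM or more, two-sided, with Benjamini-Hochberg adjustment over all genes tested. Fits used the 18 libraries of batch 1, the 7 of batch 2, or all 25 for contrasts across batches; 12210, 11913 and 12197 genes were tested, all 9 members among them. A pseudocount understates changes of low genes. In 9 columns of batch 1 values look like means of a pair; 16 do not. Column sums ran from 496435 to 2065749, with Mir2137 holding 0 to 66.1%, while size factors lay between 0.954 and 1.041.

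The members and lists were chosen with earlier results of these data known. Beyond the members, up to 3 genes a pathway list with the smallest adjusted p in Res against Veh or Prog against Res were named, and the 2 genes most correlated with each member. A gene that this rule takes is not reported here. Alternatives were a pseudocount of 0.1, no expression filter, size factors, a replicate block, library weights, other sets of libraries and each library left out. The tests were checked on simulated data. Tables and figures were made in Python 3.11.15 (pandas 2.3.3, numpy 2.4.6, matplotlib 3.10.9).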

Additional observations from a re-analysis of the deposited data

Results flagged for a closer look

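Of 36 checks of 9 members in the 4 groups of batch 1, 8 found a library far from the rest of its group, where chance gives about 5% for a single check. Most members move together and all 8 flags fall on Reg 1 or Res 5. The checks are thus not independent, and their count cannot be weighed against that rate. Reg 1 stood above the other regressing tumors for Dusp4 (41.1 FPKM), Dusp5 (41.3 FPKM), Spred1 (85.4 FPKM) and Spred3 (15.4 FPKM), and below them for Spry1 (36.6 FPKM). Res 5 stood above the other residual tumors for Dusp4 (15.9 FPKM), Dusp5 (16.4 FPKM) and Dusp6 (74.2 FPKM).

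The step from residual to resistant tumors differed between treatment with and without anti-PD-L2 by a test of the difference itself (limma, 25 libraries). The log2 difference was -3.07 for Dusp5, -2.34 for Dusp6, -2.16 for Spry4, -1.55 for Spred1 and -1.45 for Spred2, each with a batch of its own on either side.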

How the results depend on the processing

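Over 99 gene results (9 members in 11 comparisons) and 1710 recomputed values, 1591 kept their direction and side of the threshold, 42 lost a call, 15 gained one and 62 changed sign. The counts of members called that moved by more than 1.5 times were 5 for Res against Veh without the libraries with high keratin, 5 and 4 for Prog against Veh and Reg with Prog_b2 in place of Prog, and 1 for Prog_b2 against Prog with only the groups compared and, chosen after seeing the data, without Reg 1 and Res 5, which were picked for their values of these genes, so that this count supports nothing. With 1 library left out, the counts ran from 0 to 1 for aPDL2_small against Prog_b2 and for aPDL2_large against aPDL2_small, and from 2 to 6 for the difference of steps.

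None of the log2 changes that changed sign was called in either setting. In Reg against Veh, library weights gave -0.17 for Dusp4, -0.11 for Dusp5 and 0.14 for Spry1. Without the libraries with high keratin Dusp5 was at -0.10 and Spred2 at 0.048, and without Reg 1 and Res 5 Dusp4 was at -0.46, Dusp5 at -0.31, Spry1 at 0.23 and Spred3 at -0.23. Library weights gave Spry1 -0.10 in Prog against Res, -0.017 in aPDL2_small against Prog_b2 and 0.13 in the difference of steps. In Prog_b2 against Prog, Spred1 was at 0.079 with size factors and 0.070 with library weights. The causes were not tested.

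The replicate numbers were not taken to pair the samples. Same-numbered tumors did not all deviate together in any comparison with 3 or more pairs. So few pairs cannot exclude a pairing of some of them. With the replicate number as a block Spry2 was at -0.062 in Prog against Reg, where 7 members stayed called after Spry4 lost its call (adjusted p = 0.0738). With the same block Spry1 was at -0.15 in aPDL2_small against Prog_b2, and Spry1, Spry2 and Spred2 at -0.11, 0.057 and 0.14 in aPDL2_large against Prog_b2. Spred1 was at 0.093 in Prog_b2 against Prog, where the block moved the genes called to 495, against 1090 without it.

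With 1 library left out, changes in Reg against Veh ran from -0.46 to 0.50 for Dusp4, -0.31 to 0.27 for Dusp5, -0.17 to 0.23 for Spry1, -0.17 to 0.012 for Spred2 and -0.23 to 0.26 for Spred3. They ran from -0.062 to 0.12 for Spry2 in Prog against Reg and from -0.13 to 0.33 for Spry1 in Prog against Res. In aPDL2_small against Prog_b2 they ran from -3.41 to 1.24 for Dusp4 and from -0.15 to 0.45 for Spry1. In aPDL2_large against Prog_b2 they ran from -0.89 to 0.037 for Dusp5, -1.53 to 1.93 for Spry1, -0.20 to 0.089 for Spry2, -0.84 to 0.34 for Spry4, -0.17 to 0.14 for Spred2 and -0.23 to 0.37 for Spred3. In aPDL2_large against aPDL2_small they ran from -0.91 to 3.74 for Dusp4, -0.026 to 0.90 for Dusp5, -0.068 to 0.62 for Dusp6 and -1.69 to 1.77 for Spry1. In Prog_b2 against Prog they ran from -0.060 to 0.23 for Spry2 and -0.20 to 0.31 for Spred1, and in the difference of steps from -1.76 to 1.69 for Spry1. A lone remaining tumor is assumed to vary like the other groups.

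Over all genes, Prog against Veh called 2389 with Prog_b2 in place of Prog, against 5658, and Prog against Reg 2461, against 5914. Reg against Veh called 31 with library weights, against 2. With all 25 libraries in the fit, aPDL2_small against Prog_b2 called 598 genes, aPDL2_large against Prog_b2 2 and aPDL2_large against aPDL2_small 34, against 0 in each. No read counts were used, so depth cannot be set beside these values.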
